A study of Homo sapiens with 54 samples.

Results

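Expression of 10 genes tied to BMP and activin signalling was followed across all 18 groups of an RNA-sequencing series in HEK293T cells. The genes were the inhibitor of DNA binding genes ID1, ID2, ID3 and ID4, the SMAD genes SMAD6, SMAD7 and SMAD9, the decoy receptor BAMBI, the activin subunit INHBA and the activin antagonist FST. They were chosen by gene symbol, as 10 of 38137 genes listed, from a list drawn up with expression results of these libraries in view. Which comparison led to that list was not recorded, so the fold changes and adjusted p-values given here describe size against replicate spread and are not independent tests of the choice. All 10 passed the filter on low counts, as did 15378 genes in all.

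HEK293T is a human embryonic kidney line, and the study used it to ask how specific RNA targeting of C9ORF72 is across the transcriptome. Cells received by lipid transfection a plasmid encoding RfxCas13d, a nuclease led to its target by a guide RNA and able to cut bystander transcripts, as the native form (WT) or as the high-fidelity variant N2V7 or N2V8, together with a crRNA. The crRNA was crRNA-13 against C9ORF72 (S13), an additional crRNA whose target the labels do not give (S3, S4 or S7), or a non-targeting crRNA (NTG). Other cells received ASO2 or ASO4, antisense oligonucleotides against C9ORF72, and untransfected cells (UT) completed the 18 groups, each with 3 libraries from independent biological replicates. The effector was driven by the CAG promoter and the crRNA by the U6 promoter of the same plasmid. A comparison of NTG with UT thus carries the plasmid, the transfection reagent, the effector and the non-targeting crRNA together, and these cannot be told apart. The share of cells that took up the plasmid was not given in the sources used here. In such bulk libraries, fewer cells that express a gene and less RNA per cell cannot be told apart either.

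BMPs and activins are secreted ligands of the TGF-beta family that bind paired type I and type II serine/threonine kinase receptors. BMP receptors mainly phosphorylate SMAD1, SMAD5 and SMAD9, whereas activin receptors phosphorylate SMAD2 and SMAD3, and both classes of SMAD enter the nucleus with SMAD4. The ID genes are classic transcriptional targets of BMP receptors, and their proteins hold a helix-loop-helix domain without a basic region, so that they bind E proteins such as TCF3 and keep them off DNA. SMAD6, SMAD7 and BAMBI are themselves induced by the pathway and restrain it.

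The libraries held between 9546826 and 15099153 estimated counts. Levels are given as CPM, the counts of a gene scaled to a common library total after TMM scaling, and are compared between groups for a gene and not between genes. A call requires a log2 fold change over 0.32 in size and an adjusted p under 0.05 by edgeR's quasi-likelihood test with Benjamini-Hochberg adjustment. The targeted gene C9orf72 averaged 11.0 ± 0.77 CPM with ASO4 and 29.0 ± 1.31 CPM in UT cells (SD, n = 3 each), and 24.4 to 29.9 CPM in the other groups. Per the study, ASO4 targets all main transcript variants, whereas crRNA-13 and ASO2 target those with the repeat region and spare the predominant variant. The gene-level count thus says little about the variants that crRNA-13 and ASO2 target. All 7 markers of HEK293T cells were present in every library. Of 9 markers of other cell types, 8 fell below the filter, GFAP lay between 0.191 and 1.72 CPM, PHOX2A was at 0 in all 54 libraries, and their summed level was 0.382 to 2.12 CPM. Library 2 of N2V7_S4 stood apart from its group: its residuals had an SD of 0.523 (log2), and the next highest library had 0.383.

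ID1 (chr20:31605289-31606510) and ID3 (chr1:23557926-23559501, minus strand) were the members most raised in cells that carried a plasmid. Their 250 bases before the annotated start (RefSeq, GRCh38.p14, gene strand, 5′ to 3′) are shown because both genes rose together in every NTG group. The ID1 window is chr20:31605039-31605288 on the plus strand and the ID3 window is chr1:23559502-23559751 on the minus strand. Capitals mark GC boxes, spelled GGGCGG, matches to the CCAAT box and to the TATA motif, and a SMAD-binding element, spelled CAGAC. Each was searched on both strands, and the TATA motif was spelled TATAAA.
ID1: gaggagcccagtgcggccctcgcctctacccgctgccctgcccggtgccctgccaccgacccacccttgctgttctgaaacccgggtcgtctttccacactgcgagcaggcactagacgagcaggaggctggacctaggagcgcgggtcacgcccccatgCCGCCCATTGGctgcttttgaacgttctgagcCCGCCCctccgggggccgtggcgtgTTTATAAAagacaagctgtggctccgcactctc
ID3: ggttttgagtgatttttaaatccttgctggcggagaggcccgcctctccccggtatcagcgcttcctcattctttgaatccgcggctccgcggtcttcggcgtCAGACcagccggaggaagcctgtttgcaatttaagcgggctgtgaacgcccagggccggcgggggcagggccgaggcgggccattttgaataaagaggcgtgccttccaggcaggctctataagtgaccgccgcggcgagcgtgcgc
In ID1, GC boxes lay on the opposite strand 90 and 58 bases before the start, a CCAAT match on the opposite strand at 84, and 2 matches to the TATA motif that overlap each other at 33 and 31. In ID3, the only match to the 6 sequences searched was a single SMAD-binding element, 147 bases before the start. Of all 35116 such windows, 42.6% held the GC box, 32.0% the CCAAT box, 10.7% the TATA motif and 38.0% the SMAD-binding element. The BMP-responsive GC element GGCGCC occurred in 16.4% of windows and, among the 10 genes, in BAMBI alone, which held 3 copies. The cyclic AMP response element TGACGTCA occurred in 1.65% of windows and in 0 of the 10 genes. These matches describe letters in a window and not bound sites. Elements outside the 250 bases were not searched, so a gene without a match may hold one elsewhere.

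ID1, which restrains differentiation in many cell types, was about 2-fold higher with every effector carrying NTG than in UT cells. Its level was 10.2, 7.47 and 11.4 CPM in WT_NTG, 11.6, 10.2 and 13.1 CPM in N2V7_NTG and 9.35, 10.6 and 9.91 CPM in N2V8_NTG, against 4.57, 5.67 and 4.54 CPM in UT. All 9 NTG libraries lay above all 3 UT libraries. The fold change was 1.95 for WT_NTG (log2 0.97 ± 0.16 SE, adjusted p = 1.67e-06), 2.34 for N2V7_NTG (log2 1.22 ± 0.16, adjusted p = 5.45e-09) and 1.99 for N2V8_NTG (log2 1.00 ± 0.16, adjusted p = 1.34e-06).

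ID3, the family member most often paired with ID1 in development, behaved alike at a tighter spread. Its level was 57.8, 52.5 and 53.4 CPM in WT_NTG, 58.1, 50.1 and 59.4 CPM in N2V7_NTG and 56.4, 62.0 and 57.8 CPM in N2V8_NTG, against 25.1, 23.6 and 25.4 CPM in UT. No NTG library came near the UT libraries. The fold change against UT was 2.21 in WT_NTG (log2 1.14 ± 0.09), 2.26 in N2V7_NTG (log2 1.18 ± 0.09) and 2.38 in N2V8_NTG (SE 0.09 on the log2 scale), with adjusted p of 1.88e-16, 7.05e-17 and 7.6e-18.

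**Figure D1:**
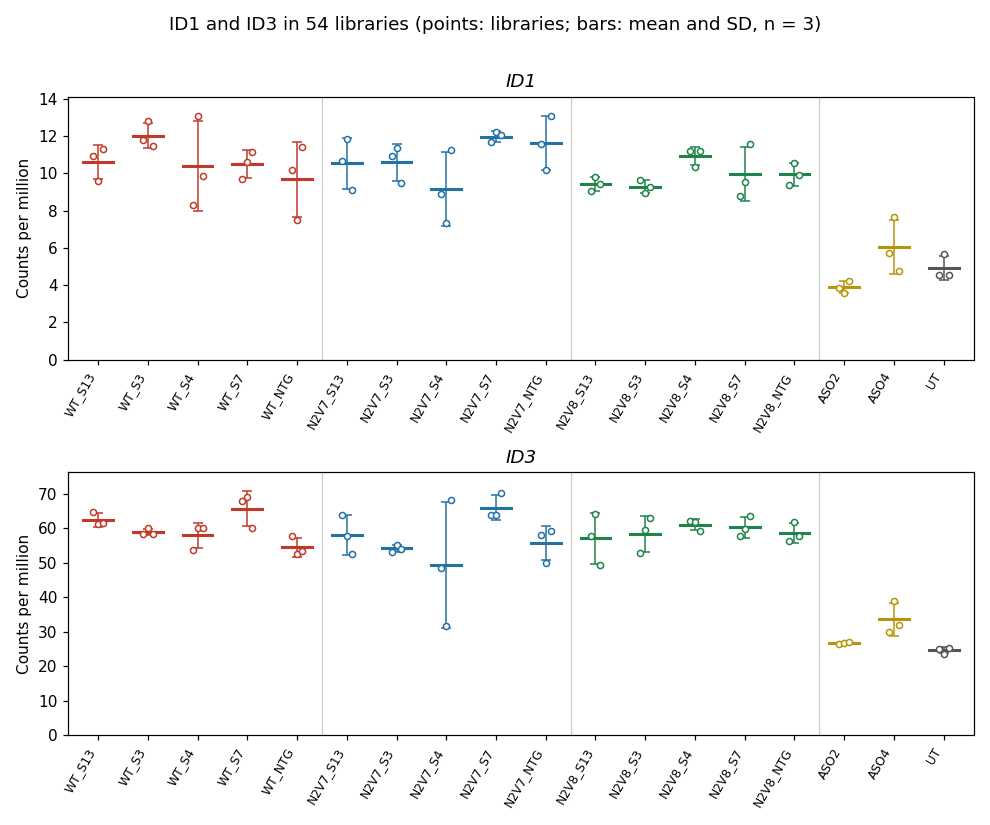
Level of ID1 and ID3 in CPM (linear axis from 0) in each of the 18 groups, with 1 point per library, a bar at the group mean of 3 libraries and whiskers of 1 SD. Plasmid groups average 9.16 to 12.0 CPM for ID1 and 49.4 to 66.1 CPM for ID3, against 4.93 and 24.7 CPM in UT cells.

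The higher level was not limited to NTG. Over the 45 libraries with a plasmid, ID1 ranged from 7.31 to 13.1 CPM with a median of 10.6 CPM, against 3.59 to 7.63 CPM with a median of 4.57 CPM in the 9 libraries of the ASO2, ASO4 and UT groups. All 45 lay above every UT library, and 2 of them lay below the highest of those 9 libraries, which was ASO4 library 2. For ID3 the range was 31.7 to 70.4 CPM with a median of 59.4 CPM, against 23.6 to 39.1 CPM with a median of 26.8 CPM. All 45 again lay above UT, and the single plasmid library below 39.1 CPM was library 2 of N2V7_S4. Of the 17 pairs of neighbouring groups in the order of mean level, the libraries did not overlap in 1 pair for ID1 (ASO2 below UT) and in 2 pairs for ID3 (UT below ASO2, and ASO2 below ASO4). From N2V7_S4 upward, the 15 plasmid groups could not be ordered beyond their spread for either gene, neighbour by neighbour. Across 18 group means ID1 and ID3 had a Pearson r of 0.954, which fell to 0.528 over the 15 plasmid groups. The points share 1 sequencing lane and the comparison of plasmid with no plasmid.

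Among oligonucleotide groups, ID3 was 30.0, 39.1 and 32.0 CPM with ASO4 and 26.6, 26.8 and 27.0 CPM with ASO2, against 25.1, 23.6 and 25.4 CPM in UT. The groups did not overlap. ID3 rose 1.36-fold with ASO4 over UT (log2 0.44 ± 0.09, adjusted p = 0.000177) and was not called with ASO2 (log2 0.12, 95% interval -0.07 to 0.30). ID1 was 1.53-fold lower with ASO2 (3.89 ± 0.332 CPM) than with ASO4 (6.04 ± 1.46 CPM; SD, n = 3 each; adjusted p = 0.00691), and without ASO4 library 2 the log2 difference was -0.43 with an adjusted p of 0.109. ID3 was also lower with ASO2 than with ASO4 (log2 -0.32 ± 0.09 SE, adjusted p = 0.00504). That value sat at the fold threshold, and the call was lost without a factor of unwanted variation (adjusted p = 0.103), with limma-trend (log2 -0.32) and without ASO2 library 1 (log2 -0.32) or ASO4 library 2 (log2 -0.21).

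No crRNA moved ID1 or ID3 past both thresholds against NTG of the same effector. The largest differences for ID3 were 1.20-fold higher in WT_S7 (65.8 ± 4.99 against 54.5 ± 2.84 CPM; SD, n = 3 each; adjusted p = 0.00919) and 1.18-fold higher in N2V7_S7 (66.1 ± 3.73 against 55.8 ± 5.01 CPM; adjusted p = 0.0219), both under the fold threshold. In N2V7_S4, ID3 was 48.5, 31.7 and 68.1 CPM, so that its libraries spanned more than those of all other plasmid groups together. The same library held the lowest ID1 level of any plasmid library, 7.31 CPM. Leaving out library 2 of N2V7_S4 moved the log2 difference from NTG to 0.05 for ID3 (-0.24 with it) and to -0.21 for ID1 (-0.36 with it). Leaving out library 3 in its place made both calls, at -0.51 for ID3 and -0.52 for ID1, and ID1 was also called there without N2V7_NTG library 2 (-0.45). Elsewhere a library left out made a call for ID1 in WT_S3 (0.44 without WT_NTG library 3) and for ID3 in WT_S7 (0.33 without its library 3).

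Against UT, 3 of the 10 genes were called in WT_NTG (ID1, ID3 and SMAD7, all higher), 7 in N2V7_NTG (5 higher, 2 lower) and 5 in N2V8_NTG (4 higher, 1 lower). Of all genes tested, 5.09% were called in WT_NTG, 20.8% in N2V7_NTG and 29.9% in N2V8_NTG. ASO4 gave 1 call (ID3) at a background of 2.25% and ASO2 gave 0 calls at a background of 16.4%. For ASO2 the unadjusted p was under 0.05 for 2 genes, and DESeq2 and limma-trend also called 0. Without ASO2 library 3, SMAD9 was called lower with ASO2 than in UT (log2 -0.33). Between the oligonucleotides, ASO2 gave 2 calls against ASO4 (ID1 and ID3, both lower) at a background of 12.1%. The 3 NTG comparisons and both oligonucleotide comparisons with UT share the same 3 UT libraries, so they are not separate evidence. The median log2 difference over the 10 genes was 0.27, 0.31 and 0.25 in WT_NTG, N2V7_NTG and N2V8_NTG, and that over all genes was within 0.01 of 0 each time. The 10 genes were chosen with results of these libraries in view, so these counts and medians are a description and no test of the set.

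**Figure D2:**
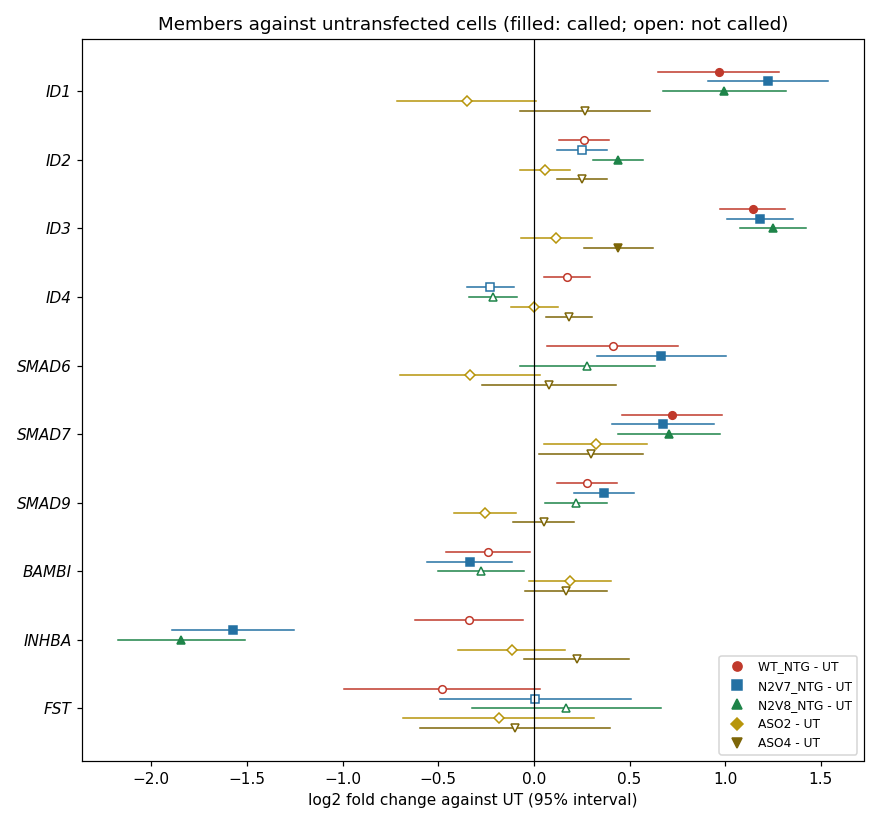
Log2 fold change of each of the 10 genes in WT_NTG, N2V7_NTG, N2V8_NTG, ASO2 and ASO4 against UT, with 95% intervals from the edgeR fit and filled points for calls. ID1 and ID3 stand near 1 in all 3 NTG groups, and INHBA reaches -1.57 in N2V7_NTG and -1.84 in N2V8_NTG. The oligonucleotide points of ID1, ID3 and INHBA lie nearer 0, which does not hold for every other gene.

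ID2 (chr2:8682056-8684461), an inhibitor of E proteins with roles in lymphoid and neural development, followed ID1 and ID3 in direction but by less. Its level was 147, 122 and 142 CPM in N2V8_NTG against 99.0, 97.0 and 108 CPM in UT, with no overlap. This was 1.35-fold (log2 0.44 ± 0.07, adjusted p = 2.63e-07). In WT_NTG and N2V7_NTG it was 1.20-fold and 1.19-fold higher than in UT, under the fold threshold. Across plasmid libraries 44 of 45 lay above every UT library, but 19 of 45 lay below the highest library without a plasmid. With ASO4, ID2 was likewise 1.19-fold above UT without overlap (adjusted p = 0.00349), under the fold threshold. ID2 reached its highest group mean in N2V7_S4, at 156, 180.3 and 149 CPM against 118, 110.1 and 133 CPM in N2V7_NTG, a 1.34-fold rise (adjusted p = 1.07e-06). This call was lost when only the compared libraries were fitted (adjusted p = 0.0637). Without library 2, the highest of the 3, the log2 difference was 0.34 and stayed called, against 0.42 with it.

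ID4 (chr6:19837370-19842197), which can oppose the other ID proteins in neural precursors, did not follow the plasmid. Its median was 103 CPM in plasmid libraries and 106 CPM in the others. It differed instead between effectors: 88.2, 79.4 and 94.2 CPM in N2V7_NTG and 89.4, 85.0 and 90.2 CPM in N2V8_NTG, against 116, 114 and 116 CPM in WT_NTG. All 6 variant libraries lay below all 3 WT libraries. ID4 was 1.32-fold lower in N2V7_NTG (adjusted p = 4.74e-07) and 1.31-fold lower in N2V8_NTG (adjusted p = 1.11e-06) than in WT_NTG.

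Under the additional crRNAs, ID4 moved in both directions. It was 124 ± 13.7 CPM in N2V7_S4 against 87.3 ± 7.48 CPM in N2V7_NTG, a 1.41-fold rise that kept its call at log2 0.40 without library 2 of N2V7_S4. It was 113 ± 2.40 CPM in N2V8_S4 and 112 ± 5.70 CPM in N2V8_S7 against 88.2 ± 2.82 CPM in N2V8_NTG, rises of 1.28-fold and 1.27-fold. In WT_S7 it fell to 90.0 ± 5.24 CPM, against 115 ± 1.15 CPM in WT_NTG (1.28-fold lower; SD, n = 3 each throughout). The adjusted p was 1.17e-08, 1.06e-05, 3.14e-05 and 1.06e-05 in that order. The S7 calls lay close to the fold threshold of 0.32 on the log2 scale: WT_S7 was -0.31 without its library 1, and N2V8_S7 was 0.32 without N2V8_NTG library 2 and 0.30 without N2V8_S7 library 1.

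SMAD7 (chr18:48919853-48950965), an inhibitory SMAD that recruits ubiquitin ligases to activated receptors, rose in every NTG group. It was 11.7, 10.3 and 10.9 CPM in WT_NTG, 9.12, 12.4 and 10.4 CPM in N2V7_NTG and 10.2, 10.2 and 12.2 CPM in N2V8_NTG, against 6.12, 6.66 and 7.17 CPM in UT. All 45 plasmid libraries lay above all UT libraries, but 14 of them lay below the highest library without a plasmid, at 9.44 CPM. The fold change against UT was 1.65, 1.60 and 1.63, with adjusted p of 1.11e-05, 4.52e-05 and 2.34e-05. With the oligonucleotides its log2 difference from UT was 0.32 in ASO2 (adjusted p = 0.087) and 0.30 in ASO4 (adjusted p = 0.12). Neither was called, although the libraries of both groups also lay above all UT libraries.

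Among the crRNAs, SMAD7 was 1.31-fold lower in N2V8_S3 (8.26 ± 0.978 against 10.9 ± 1.19 CPM in N2V8_NTG; adjusted p = 0.024) and 1.27-fold lower in WT_S4 (8.60 ± 0.509 against 11.0 ± 0.66 CPM in WT_NTG; SD, n = 3 each; adjusted p = 0.0447). Neither was stable. The N2V8_S3 call was lost with DESeq2 (adjusted p = 0.0509), without the filter (0.102), with the compared libraries only (0.0983), and without N2V8_NTG library 3 (0.159), N2V8_S3 library 1 (0.0554) or N2V8_S3 library 3 (0.137). The WT_S4 call was lost under 4 of 7 alternative settings and without any of 7 libraries (all 3 of WT_S4, libraries 1 and 3 of WT_NTG, library 3 of N2V7_NTG and library 2 of N2V7_S4), with adjusted p of 0.0501 to 0.137.

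SMAD6 (chr15:66702236-66782849), the inhibitory SMAD more selective for BMP receptors, was 14.5, 15.0 and 13.5 CPM in N2V7_NTG against 7.59, 9.57 and 9.89 CPM in UT, a 1.59-fold rise (adjusted p = 0.00154) with no overlap. In WT_NTG it was 1.33-fold above UT with an adjusted p of 0.0599. That difference passed without the low-count filter (adjusted p = 0.0172), with only the compared libraries (0.0365) and without WT_NTG library 3 (0.0199). In N2V8_NTG it was 1.21-fold above UT (adjusted p = 0.245). Over the plasmid libraries its median was 11.7 CPM, against 8.08 CPM without a plasmid.

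SMAD9 (chr13:36844831-36920854), a receptor-activated SMAD of the BMP branch that transcribes weakly, was 49.9, 45.9 and 43.4 CPM in N2V7_NTG against 36.8, 35.8 and 35.4 CPM in UT. The groups did not overlap, and the 1.29-fold rise (adjusted p = 0.000178) dropped to a log2 value of 0.31, just under the fold threshold, without N2V7_NTG library 1. In WT_NTG and N2V8_NTG it was 1.21-fold and 1.17-fold above UT, under that threshold. The lowest group was ASO2, at 31.0, 26.2 and 33.2 CPM, 1.19-fold below UT (adjusted p = 0.0188).

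BAMBI (chr10:28677521-28682932), a pseudoreceptor that lacks a kinase domain, went the other way. It was 13.6, 15.7 and 16.4 CPM in N2V7_NTG against 21.2, 16.9 and 19.8 CPM in UT, and 1.26-fold lower (adjusted p = 0.0165). The call was lost without N2V7_NTG library 1 (adjusted p = 0.116), UT library 1 (0.118) or UT library 3 (0.0515). WT_NTG was 1.18-fold and N2V8_NTG 1.21-fold below UT, with adjusted p of 0.0909 and 0.0551. Both were called without UT library 2 (log2 -0.33 and -0.37), and N2V8_NTG also without its library 1 (log2 -0.36). BAMBI was highest in WT_S7, at 21.1, 23.3 and 22.0 CPM against 17.1, 14.9 and 16.8 CPM in WT_NTG, a 1.36-fold rise (adjusted p = 0.00181) without overlap. In WT_S3 it was 20.3 ± 2.70 CPM (SD, n = 3), at a log2 difference of 0.32 (adjusted p = 0.0312), just short of the fold threshold, from WT_NTG, and it was called without WT_NTG library 1, WT_NTG library 3 or WT_S3 library 1 (log2 0.35, 0.34 and 0.41).

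**Figure D3:**
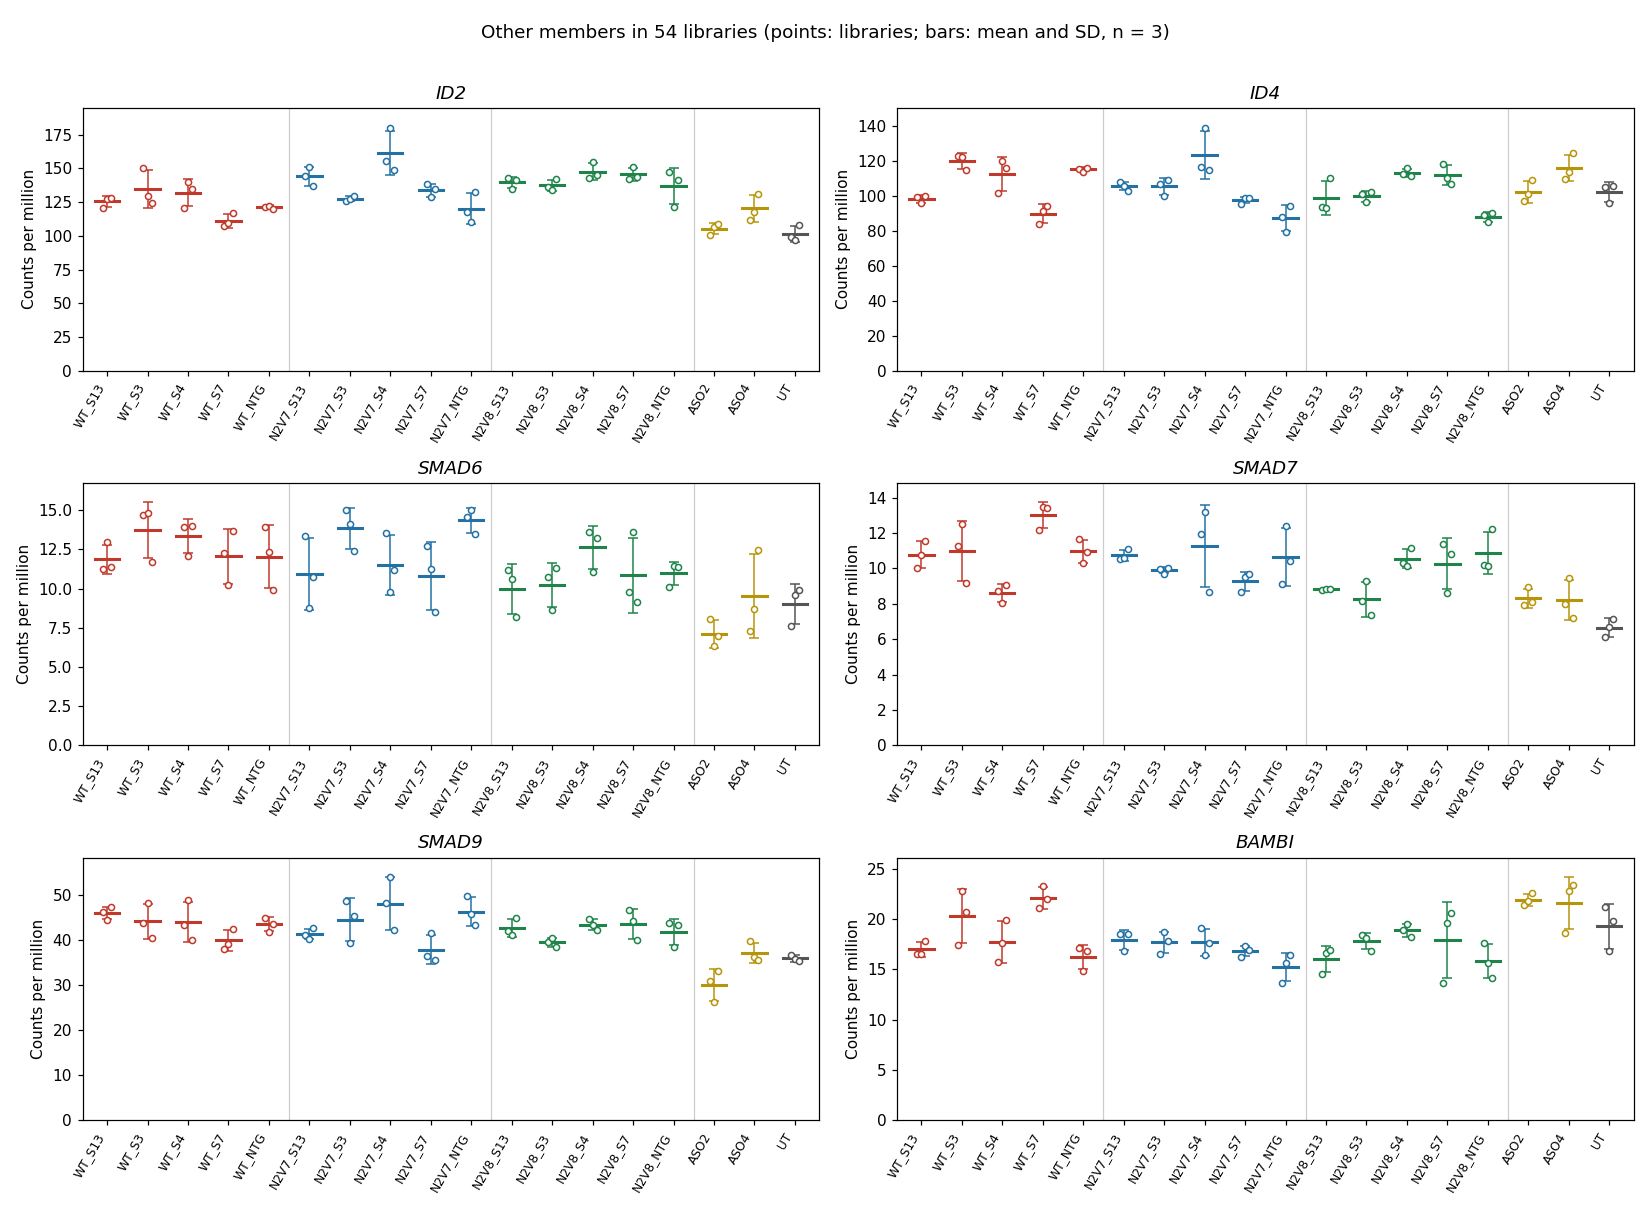
Level of ID2, ID4, SMAD6, SMAD7, SMAD9 and BAMBI in CPM (linear axes) in each of the 18 groups, with 1 point per library, a bar at the group mean of 3 libraries and whiskers of 1 SD. SMAD7 lies above UT in all 45 plasmid libraries and also in the ASO2 and ASO4 libraries. ID4 spans 87.3 to 124 CPM among plasmid groups, on both sides of its UT mean of 102 CPM.

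INHBA (chr7:41685114-41705406, minus strand) encodes the beta A subunit that forms activin A, and its group means ran between 5.65 CPM in N2V8_NTG and 23.8 CPM in ASO4. It was 7.39, 6.80 and 6.28 CPM in N2V7_NTG and 5.61, 5.22 and 6.12 CPM in N2V8_NTG, against 20.2, 19.3 and 21.5 CPM in UT. WT_NTG was intermediate and uneven, at 12.1, 15.3 and 20.7 CPM. INHBA was 2.97-fold lower in N2V7_NTG (log2 -1.57 ± 0.16 SE, adjusted p = 6.92e-12) and 3.59-fold lower in N2V8_NTG (log2 -1.84 ± 0.17, adjusted p = 1.58e-13) than in UT. WT_NTG was 1.26-fold lower than UT (log2 -0.34, 95% interval -0.62 to -0.06) with an adjusted p of 0.062. That difference passed with the replicate number as a block (log2 -0.35, adjusted p = 0.0372) and without WT_NTG library 3 (log2 -0.57, adjusted p = 0.00256).

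The effectors thus differed in INHBA with the same non-targeting crRNA. Against WT_NTG, it was 2.35-fold lower in N2V7_NTG (adjusted p = 1.23e-08) and 2.84-fold lower in N2V8_NTG (adjusted p = 1.96e-10). The 6 variant libraries all lay below the lowest WT_NTG library. Across these comparisons, N2V7_NTG gave 2 calls among the 10 genes (ID4 and INHBA, both lower; 11.0% of all genes) and N2V8_NTG gave 3 (ID4 and INHBA lower, FST higher; 24.2% of all genes).

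With WT and S13, INHBA was 5.97, 6.99 and 5.89 CPM, against 12.1, 15.3 and 20.7 CPM in WT_NTG, 2.56-fold lower (log2 -1.36 ± 0.16 SE) and without overlap. This fall was known before these genes were chosen and is given as a description. In N2V7_S13 the level was 6.96 ± 0.175 CPM against 6.83 ± 0.556 CPM in N2V7_NTG, and in N2V8_S13 it was 6.85 ± 1.77 CPM against 5.65 ± 0.448 CPM in N2V8_NTG (SD, n = 3 each). The 95% interval of the log2 difference was -0.33 to 0.39 for N2V7 and -0.11 to 0.64 for N2V8. All 3 S13 groups had means between 6.28 and 6.96 CPM, while their NTG groups did not share a level.

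Of the additional crRNAs, INHBA was called lower in S3 and S7 with WT and higher in S4 and S7 with N2V8, and not all of these calls were stable. With WT, INHBA was lower in S7 (9.58, 10.5 and 9.41 CPM; 1.64-fold, adjusted p = 0.000429) and in S3 (9.93, 12.7 and 11.6 CPM; 1.41-fold, adjusted p = 0.0132) than in WT_NTG, and it was 1.17-fold lower in S4 without a call. With N2V8 it was higher in S4 (8.75, 8.38 and 9.71 CPM; 1.58-fold, adjusted p = 0.00604) and in S7 (8.15, 7.31 and 9.91 CPM; 1.49-fold, adjusted p = 0.0228) than in N2V8_NTG, and in N2V8_S3 it was 6.55 ± 0.940 CPM against 5.65 ± 0.448 CPM (SD, n = 3 each) without a call (log2 0.22, adjusted p = 0.475). The WT_S3 value rested on 1 control library: without WT_NTG library 3 it was -0.26 on the log2 scale with an adjusted p of 0.294, and it was also lost without WT_S3 library 1 (0.0829) and with only the compared libraries (0.0818). The N2V8_S7 call was lost without N2V8_NTG library 1 (0.0592), N2V8_NTG library 2 (0.0817) or N2V8_S7 library 3 (0.134). Over all groups, 44 of 45 plasmid libraries lay below every UT library. Among the 17 neighbouring pairs only UT and ASO4 did not overlap, with the highest UT library at 21.5 CPM and the lowest ASO4 library at 21.53 CPM. INHBA was not called in ASO4 against UT (log2 0.22, adjusted p = 0.279).

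FST (chr5:53480629-53487134) encodes follistatin, a secreted protein that binds and neutralises activin. It was scarce, with 12.4 to 71.3 estimated counts per library, so that its fold changes carry more error than those of the other members. Its level was 5.02, 6.19 and 5.91 CPM in WT_S7 against 1.70, 1.75 and 1.92 CPM in WT_NTG, 3.17-fold higher (log2 1.66 ± 0.23 SE, adjusted p = 1.83e-07). WT_S7 did not overlap the next group in order, N2V7_S4 at 3.21 ± 0.777 CPM (SD, n = 3). In N2V7_S7 FST was 2.80 ± 0.624 CPM against 2.53 ± 0.425 CPM in N2V7_NTG, and in N2V8_S7 it was 2.55 ± 0.691 CPM against 2.82 ± 0.156 CPM in N2V8_NTG. Neither was called. FST was 1.57-fold higher in N2V8_NTG than in WT_NTG (adjusted p = 0.0429). This call was lost under 4 of 7 alternative settings and without any of 7 libraries (all 3 of WT_NTG, all 3 of N2V8_NTG and library 1 of N2V7_NTG), with adjusted p of 0.0523 to 0.132.

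**Figure D4:**
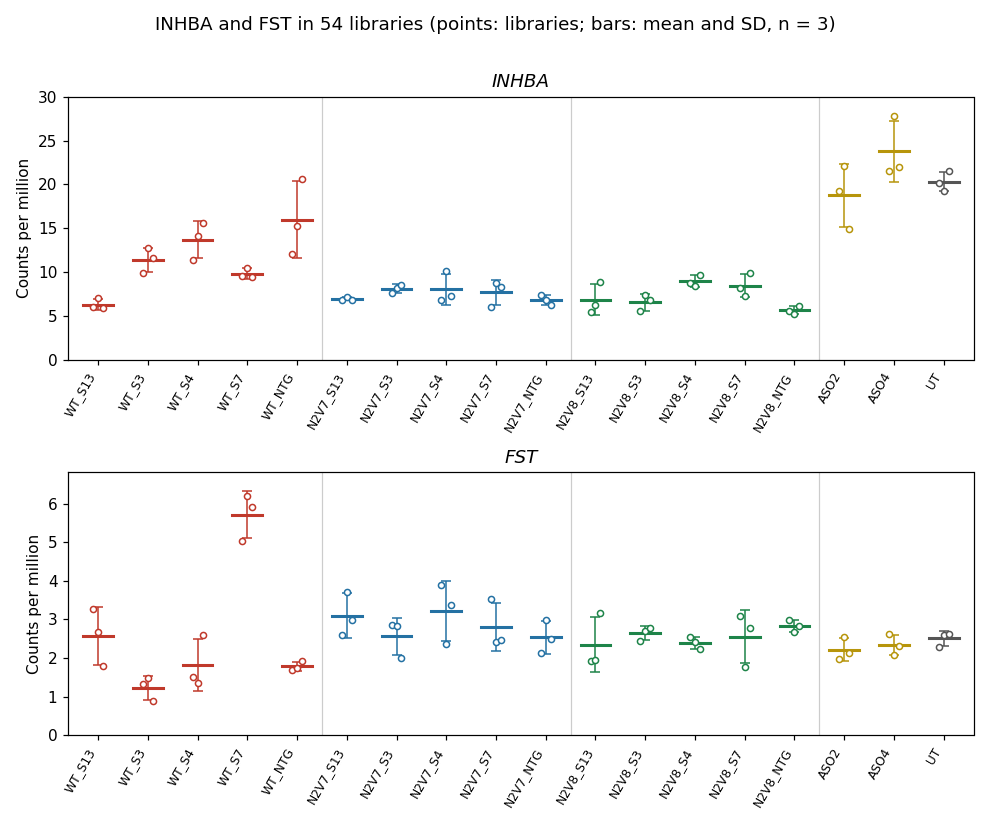
Level of INHBA and FST in CPM (linear axis from 0) in each of the 18 groups, with 1 point per library, a bar at the group mean of 3 libraries and whiskers of 1 SD. INHBA is 5.65 to 8.95 CPM on average in every N2V7 and N2V8 group against 20.3 CPM in UT, and FST stands out in WT_S7 at 5.71 CPM.

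Counted over crRNAs, each against NTG of its own effector, calls among the 10 genes were set beside the share of all genes called. With S13 there was 1 in WT (INHBA, lower; 10.8% of all genes were called, and nothing is read from this count), 0 in N2V7 (11.4%) and 0 in N2V8 (2.44%). The unadjusted p was under 0.05 for 5 genes in N2V7_S13 and 2 in N2V8_S13, and DESeq2 and limma-trend called 0 in either. Without the low-count filter, and with only the compared libraries, SMAD6 was called lower in N2V7_S13 (log2 -0.38 and -0.39). Leaving out a single library also made calls in the S13 comparisons: ID2 and ID4 higher in N2V7_S13 without N2V7_NTG library 3 (log2 0.34 each), SMAD6 lower in N2V7_S13 without its library 1 (log2 -0.55), and FST higher in WT_S13 without its library 3 (log2 0.73).

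With S3 there was 1 call in WT (INHBA, lower; 2.74% of all genes), 0 in N2V7 (4.15%) and 1 in N2V8 (SMAD7, lower; 3.07%). With S4 there was 1 in WT (SMAD7, lower; 2.67%), 2 in N2V7 (ID2 and ID4, higher; 24.2%) and 2 in N2V8 (ID4 and INHBA, higher; 6.15%). With S7 there were 4 in WT (FST and BAMBI higher, ID4 and INHBA lower; 19.2%), 0 in N2V7 (14.3%) and 2 in N2V8 (ID4 and INHBA, higher; 7.33%). For the comparisons without a call, the unadjusted p was under 0.05 for 1 gene in N2V7_S3 and 5 in N2V7_S7, and DESeq2 and limma-trend called 0. Calls appeared with a library left out: ID4 higher in N2V7_S3 without N2V7_NTG library 3 (log2 0.33), and in N2V7_S7 SMAD9 lower without N2V7_NTG library 3 or its own library 2 (log2 -0.34 and -0.36) and SMAD6 lower without its own library 1 (log2 -0.54). Without the low-count filter, SMAD6 was also called lower in N2V7_S7 (log2 -0.40). The crRNA comparisons of an effector share their 3 NTG libraries.

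**Figure D5:**
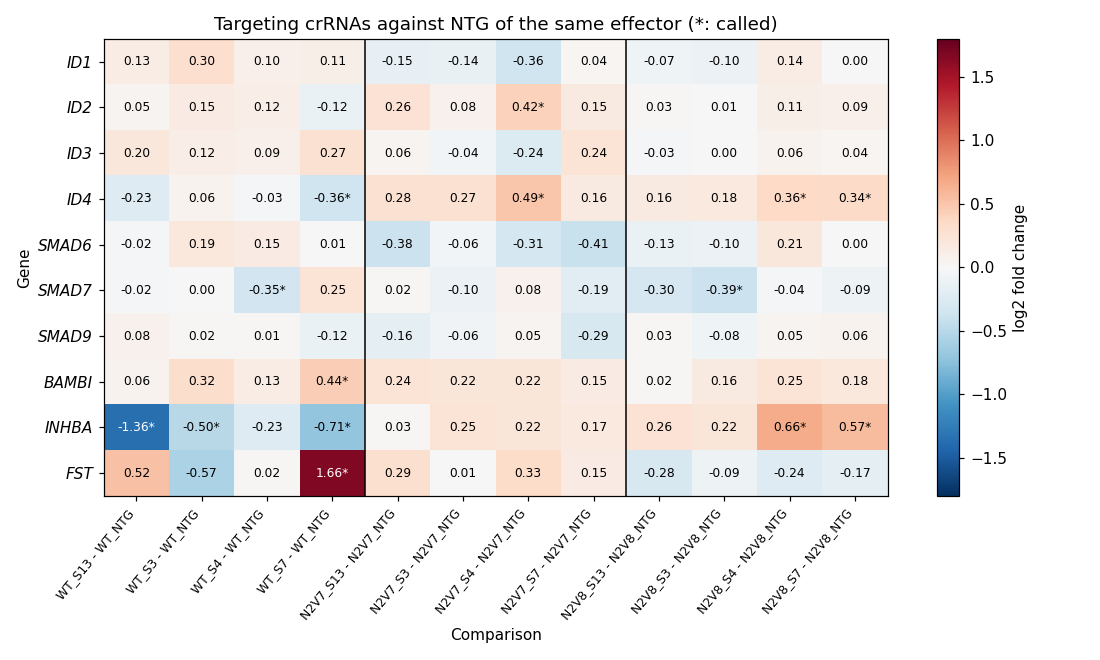
Heat map of the log2 fold change of the 10 genes (rows) in 12 comparisons of a crRNA with NTG of the same effector (columns), with an asterisk for a call. INHBA is called lower in WT with S13, S3 and S7 and higher in N2V8 with S4 and S7, and the strongest rise is FST in WT_S7 at 1.66. The INHBA calls in WT_S3 and N2V8_S7 are lost without some single libraries.

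The difference between effectors was then taken from the same fit, as the crRNA effect in a variant minus that in WT. For S13, the ID4 difference was 0.50 ± 0.09 on the log2 scale for N2V7 and 0.39 ± 0.09 for N2V8, and both passed the thresholds. The ID4 value for N2V8 fell to 0.31 without N2V8_S13 library 3. The INHBA difference was 1.38 ± 0.24 for N2V7 and 1.62 ± 0.25 for N2V8. It contains the fall of INHBA in WT_S13 that was known before these genes were chosen, so it is a description and no test. Of all genes, 14.9% were past the thresholds for N2V7 and 18.3% for N2V8, and ID4 and INHBA were the 2 members among them in either case. Between N2V8 and N2V7 there were 0 calls (14.2%), with 1 gene at an unadjusted p under 0.05 and 0 by DESeq2 and limma-trend. Since the variants already differed from WT in INHBA and ID4 with NTG, these differences share the NTG levels given above. Against NTG of the same effector, ID4 was not called with S13 (log2 -0.23 in WT, 0.28 in N2V7 and 0.16 in N2V8). Its S13 means were 98.5 ± 2.15 CPM in WT, 105.8 ± 2.48 CPM in N2V7 and 99.0 ± 9.81 CPM in N2V8 (SD, n = 3 each).

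For S3, INHBA was the only one of the 10 genes that differed. Its difference was 0.75 ± 0.23 with N2V7 (adjusted p = 0.0142), where 6.58% of all genes were called. With N2V8 it was 0.72 ± 0.24 (adjusted p = 0.0242), where 5.85% were called. Both were lost without WT_NTG library 3 (adjusted p = 0.117 and 0.158). The N2V8 value was also lost without the factor of unwanted variation (0.0519) and without N2V8_NTG library 2 (0.06), WT_S3 library 1 (0.065) or N2V8_S3 library 2 (0.0792). For S4, ID4 differed with N2V7 (0.53 ± 0.09) and N2V8 (0.40 ± 0.09), INHBA with N2V8 (0.89 ± 0.23) and ID3 with N2V7 (-0.33 ± 0.11), which made 2 calls for each variant (19.9% and 10.1%). The ID3 difference was -0.04 (adjusted p = 0.892) without library 2 of N2V7_S4, and it was also lost without the factor of unwanted variation, with only the compared libraries and without any of 6 further libraries (libraries 2 and 3 of WT_NTG, 1 and 3 of N2V7_NTG, and 2 and 3 of WT_S4; adjusted p of 0.0594 to 0.087).

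For S7, FST, ID4 and INHBA differed with either variant (25.8% of all genes with N2V7 and 29.5% with N2V8). The FST difference was -1.51 ± 0.34 for N2V7 and -1.84 ± 0.34 for N2V8, that of ID4 0.52 ± 0.09 and 0.70 ± 0.09, and that of INHBA 0.88 ± 0.24 and 1.28 ± 0.24. The adjusted p ranged from 9.03e-09 to 0.00425 over these 6 values. The rise of FST was larger in WT than in either variant, and this is no independent test of the choice of genes. BAMBI, called in WT_S7, was not among the genes whose difference between effectors was called.

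The surrounding pathway was described with 7 lists of 109 other genes, of which 88 passed the filter. Of the receptors, 15 of 17 passed, with median levels of 59.6 CPM for BMPR1A, 94.7 CPM for BMPR2, 50.6 CPM for ACVR1B and 175 CPM for ACVR2B. All 5 genes of the list of receptor-activated and common SMADs, SMAD1 to SMAD5, passed. In WT_NTG 6 of the 88 genes were called against UT (2 higher, 4 lower), in N2V7_NTG 13 (5 higher, 8 lower) and in N2V8_NTG 20 (6 higher, 14 lower), where 5.09%, 20.8% and 29.9% of all genes were called. For N2V7_NTG and N2V8_NTG the share of the 88 thus lay below that of all genes. The median log2 difference over the 88 genes was 0.01, 0.02 and -0.04, near that of all genes. No receptor was called in WT_NTG or N2V7_NTG, and 4 were called lower in N2V8_NTG.

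Named by size of change, INHBE, which encodes the beta E activin subunit, fell alongside INHBA. It was 29.7 ± 1.01 CPM in WT_NTG, 16.1 ± 0.0565 CPM in N2V7_NTG and 16.4 ± 2.14 CPM in N2V8_NTG, against 47.1 ± 0.144 CPM in UT (SD, n = 3 each). Its log2 difference was -0.67, -1.55 and -1.53. INHBB, the beta B subunit, fell in WT_NTG (5.08 ± 0.151 against 7.61 ± 0.488 CPM; log2 -0.58, adjusted p = 0.00163). BMP8A, a BMP ligand, was 3.09 ± 0.492 CPM in WT_NTG and 3.03 ± 0.579 CPM in N2V7_NTG against 1.00 ± 0.298 CPM in UT, with adjusted p of 0.0348 and 0.0397. ATOH8, a helix-loop-helix gene responsive to BMP, was 3.52 ± 2.29 CPM in N2V7_NTG against 0.643 ± 0.256 CPM in UT (adjusted p = 0.00898). GDF9, an oocyte-derived ligand of the family, was called higher in N2V8_NTG and stayed under 1 CPM on average in both groups.

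With ASO2, in which none of the 10 genes was called, 26 of the 88 pathway genes were called against UT (8 higher, 18 lower; 16.4% of all genes), and with ASO4, 3 (2 higher, 1 lower; 2.25% of all genes). SMAD3, an activin-branch SMAD, was 24.2 ± 1.30 CPM with ASO2 against 57.4 ± 4.97 CPM in UT (log2 -1.24, adjusted p = 1.47e-20), and GDF7, a BMP-family ligand, was 8.96 ± 1.45 against 16.7 ± 4.03 CPM (log2 -0.92, adjusted p = 2.8e-06). With ASO4 the called genes were BMPR1B (log2 -0.57), CCN2 (log2 0.38) and CHRDL1 (log2 0.33).

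With S13 against NTG, 3 of the 88 genes were called in WT (all lower; 10.8% of all genes), 7 in N2V7 (1 higher, 6 lower; 11.4%) and 1 in N2V8 (higher; 2.44%). Each share of the 88 lay below that of all genes, and the genes named here are examples by size of change. In WT_S13 these were BHLHE40 (72.1 ± 5.73 against 105 ± 10.2 CPM in WT_NTG; log2 -0.54), a transcriptional repressor, CDKN1A (92.7 ± 2.04 against 131 ± 14.6 CPM; log2 -0.50), a cell-cycle inhibitor that both p53 and TGF-beta induce, and CHRD (log2 -0.51), which encodes the BMP antagonist chordin. In N2V7_S13 the leading genes were AMH (log2 -1.76), HIPK2 (log2 -0.61) and SKI (log2 -0.41), the last a repressor of SMAD complexes. HIPK2 was 106 ± 2.47 against 162 ± 8.28 CPM in N2V7_NTG. AMH was scarce, at 0.374 ± 0.184 against 1.265 ± 0.537 CPM, and the SE of its log2 value was 0.49. BHLHE40 was higher in N2V8_S13 (80.2 ± 4.07 against 63.7 ± 3.48 CPM in N2V8_NTG; log2 0.33).

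Genes whose group means resembled those of a member most closely were taken from 11756 genes over the 18 groups. For INHBA they were GTPBP2 (Pearson r = 0.969), CALCB (0.954), FAM160B1 (0.951), SIPA1L2 (0.946) and PGM3 (0.945), and over the 15 plasmid groups alone r stayed at 0.90 to 0.923. For ID1 they were MAPK12 (0.896), RNASET2, SLC39A11, ATP6AP2 and GLDC, and for ID3 ZCCHC12 (0.929), ATP6AP2, GLDC, LAPTM4B and MAPK12. Within the plasmid groups these fell to between -0.08 and 0.306 for ID1 and between 0.06 and 0.521 for ID3. The likeness to ID1 and ID3 was thus mostly that of plasmid groups with groups without one, whereas that to INHBA also held among plasmid groups.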

How the data were processed

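Poly(A) RNA of HEK293T cells was sequenced from both ends in 54 stranded libraries. Harvest was 48 h after transfection per the labels and later than that per the study's text. Estimated counts per gene were deposited, made by the authors with Salmon (version 1.5.2, per the submitters' processing notes) against NCBI transcripts, with the GRCh38 genome as decoy, and scaled for transcript length by tximport, with multi-mapped reads kept. A second deposited column, a TRUE or FALSE mark of kept genes, was not used. Estimated counts were rounded here. In R (version 4.3.3), edgeR (version 4.0.16) was run with TMM scaling, filterByExpr (genes below it held 0.0722% of counts) and the robust quasi-likelihood test over all 54 libraries, with 1 factor of unwanted variation from the residuals. Of residual variance, 23.4% went to that factor, and of the factor's squared weight 95.6% lay in N2V7_S4. Adjusted p-values run over all genes and all comparisons of a family (7 families, 29 comparisons). Intervals are 95%, and the SDs are between libraries. CPM values were computed from the deposited counts. The test was checked on simulated data.

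All 10 members are named. Other pathway genes are named where called in comparisons of S13 with NTG, NTG with UT or an oligonucleotide with UT, at most the 3 with the largest change; 1 result under this rule is not reported here. Those most like ID1, ID3 and INHBA are the 5 with the highest Pearson r among genes whose log2 CPM averaged 2 or more. The members and lists were chosen with earlier results of these data known. Alternatives were no factor, limma-trend (limma version 3.58.1, prior count 2), DESeq2 (version 1.42.0), DESeq2 size factors, no filter, a replicate block, only the compared libraries, and each library left out in turn. Replicate numbers were not treated as pairs. Promoter windows came from RefSeq on GRCh38.p14, and all 10 members matched by symbol.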

Additional observations from a re-analysis of the deposited data

Results flagged for a closer look

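Between effectors, 16 differences in a crRNA effect were past the thresholds in the test of the difference itself. Each value is the log2 effect of the crRNA against NTG in a variant minus that in WT. For INHBA it was 1.38 (N2V7) and 1.62 (N2V8) with S13, 0.75 (N2V7) and 0.72 (N2V8) with S3, 0.89 (N2V8) with S4, and 0.88 (N2V7) and 1.28 (N2V8) with S7. The S13 values of INHBA contain its fall in WT_S13, which was known before these genes were chosen, and are given as descriptions and not as independent tests. The other values are not independent tests of the choice of genes either. For ID4 it was 0.50 (N2V7) and 0.39 (N2V8) with S13, 0.53 (N2V7) and 0.40 (N2V8) with S4, and 0.52 (N2V7) and 0.70 (N2V8) with S7. For FST it was -1.51 (N2V7) and -1.84 (N2V8) with S7. For ID3 it was -0.33 (N2V7) with S4, and this value was -0.04 without library 2 of N2V7_S4. All differences of an effector rest on the same NTG libraries, and the WT effects on the same 3 WT_NTG libraries, in which INHBA spanned 12.1 to 20.7 CPM.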

How the results depend on the processing

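Of 53 calls among the 10 genes, 45 kept their call under all 7 alternative settings and 37 also kept it each time a library was left out. No log2 difference changed sign with a call. With S13 against NTG the count of calls was 1, and 2 without the low-count filter and with only the compared libraries. For the oligonucleotides it was 3, and 5 without the filter. The other counts stayed within 1.5 times their value under these settings. With 1 library left out, the count lay between 1 and 3 for S13 against NTG, 11 and 15 for S3, S4 and S7 against NTG (13 with all libraries), 13 and 17 for NTG against UT (15), 2 and 5 for the oligonucleotides (3), 4 and 5 for the variants against WT with NTG (5), 4 and 5 for effector differences with S13 (4), and 11 and 15 for those with S3, S4 and S7 (12). The calls gained for the oligonucleotides were SMAD6 (log2 -0.42) and INHBA (log2 -0.35) for ASO2 against ASO4 without the filter, and with a library left out SMAD9 in the same comparison (log2 -0.32 to -0.38, without ASO2 library 1 or 3 or ASO4 library 2 or 3), INHBA (-0.47, without ASO2 library 2) and SMAD6 (-0.58, without ASO4 library 1). The cause of these changes was not tested. FST, at 12.4 to 71.3 counts per library, is limited by depth.

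Libraries with the same replicate number in different groups did not deviate together (mean r 0.00112 over 459 pairs, of which 1 exceeded 0.1). With the replicate number as a block, INHBA was called lower in WT_NTG than in UT (log2 -0.35, adjusted p = 0.0372), and no other call changed. The block gave 16 calls for NTG against UT (15 without it) and the same counts as without it elsewhere.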
